A study of Homo sapiens with 4 samples.

Results

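The genes of 4 peptidases and of 1 protease inhibitor were followed in MEG-01, an established human line of megakaryoblasts, the precursors of platelet-forming cells. They were GZMA, DPP4, ERAP2, MMP14 and TFPI2, 5 of the 426 genes in the authors' deposited table of called genes. They were chosen by name from that table, so the same 4 libraries that are described here had already selected them. For that reason their differences between groups are given as a description, with errors and without a test of their own. Wild-type cells (WT) and cells labelled OGT depletion gave 2 libraries each, and the series describes the latter as a CRISPR/Cas9 knockdown of OGT, the enzyme that places O-linked N-acetylglucosamine on nuclear and cytosolic proteins. All 4 were cultured alike in RPMI1640 with 10% FBS, and no treatment other than the OGT targeting is named. The labels do not say whether the depleted cells were a clone or a pool, whether WT cells carried a control guide, or whether replicates were separate cultures.

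Peptidases cut peptide bonds inside proteins or at their ends, and inhibitors block them by occupying the active site. GZMA encodes granzyme A, a trypsin-like serine protease stored in the granules of cytotoxic lymphocytes. DPP4 encodes CD26, a cell-surface serine peptidase that removes dipeptides from the amino end of chemokines and incretin hormones when proline or alanine is in the penultimate position. ERAP2 encodes a zinc aminopeptidase of the endoplasmic reticulum that trims peptides for presentation on MHC class I. MMP14 encodes MT1-MMP, a membrane-anchored matrix metalloproteinase that cleaves collagen and activates the zymogen of MMP2. TFPI2 encodes a secreted inhibitor with Kunitz domains that binds serine proteases such as plasmin and trypsin and is deposited in extracellular matrix.

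Each gene had between 21 and 2360 reads in every library, out of 17643474 to 19883586 counted reads per library. Normalized counts below are reads divided by a size factor per library (from 0.950 to 1.06). The targeted transcript, OGT, was at 16012 and 19190 normalized counts in WT and at 9124 and 12185 after depletion, so the labels and the transcript went the same way. OGT is itself among the 426 listed genes, so this is no independent check of the labels. Its depleted mean was 60.5% of the WT mean, and its protein is not analysed here. About 13154 genes were tested by the authors, a number inferred from the deposited adjusted and unadjusted p-values on the assumption of Benjamini-Hochberg adjustment. On that number, 3.24% of the tested genes were called in either direction, 1.89% higher and 1.35% lower after depletion. All 5 genes are among those called because they were taken from that list, 2 as higher and 3 as lower, and nothing can be read from that count. The adjusted p-values that placed them there, in the authors' deposited table, were 1.57e-06 for TFPI2, 7.66e-05 for GZMA, 0.00644 for DPP4, 0.00670 for MMP14 and 0.0233 for ERAP2. The highest in that table is 0.0497, and genes past that threshold are not analysed here.

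The upstream sequences of both genes that were higher and of DPP4, the gene with the deepest decrease, are shown first because the windows of the 2 higher genes differ in base composition. They are the 250 bases before the RefSeq start site on GRCh38.p14, read 5′ to 3′ on the gene's strand, and capitals mark matches to the motifs searched. The windows lie at chr5:55102396-55102645 on the plus strand for GZMA, at chr7:93890754-93891003 on the minus strand for TFPI2 and at chr2:162074216-162074465 on the minus strand for DPP4.
GZMA: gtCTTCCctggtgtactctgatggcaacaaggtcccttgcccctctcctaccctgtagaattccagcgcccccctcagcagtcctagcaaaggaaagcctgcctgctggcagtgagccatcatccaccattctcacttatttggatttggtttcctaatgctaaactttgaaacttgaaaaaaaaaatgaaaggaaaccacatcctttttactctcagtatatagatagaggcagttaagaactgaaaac
TFPI2: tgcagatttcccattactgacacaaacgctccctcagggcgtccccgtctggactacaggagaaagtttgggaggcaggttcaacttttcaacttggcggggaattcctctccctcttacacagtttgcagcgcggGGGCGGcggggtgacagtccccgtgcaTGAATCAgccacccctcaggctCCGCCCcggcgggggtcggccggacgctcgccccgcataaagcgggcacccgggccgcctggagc
DPP4: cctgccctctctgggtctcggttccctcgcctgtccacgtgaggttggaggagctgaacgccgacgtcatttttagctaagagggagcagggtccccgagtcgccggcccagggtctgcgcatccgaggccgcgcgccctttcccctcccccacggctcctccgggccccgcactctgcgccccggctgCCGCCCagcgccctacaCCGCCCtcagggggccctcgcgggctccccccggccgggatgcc

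The GZMA window had a GC content of 44.8% with 1 CpG dinucleotide, the TFPI2 window 64.4% with 20, and the DPP4 window 73.6% with 26. Over all 35116 windows of this length in the RefSeq set the median GC content was 58%, with a median of 11 CpG dinucleotides, and 21.6% of windows had a lower GC content than that of GZMA. The MMP14 window, at 56.8%, was near the median, and the windows at both annotated ERAP2 starts were at 46% and 41.2%. All 5 genes were matched to the set by symbol.

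Motifs were searched as exact letters on both strands. They were the TATA box (TATAAA, in 10.7% of all windows), the CCAAT box (CCAAT, 32%) and the GC box (GGGCGG, 42.6%). An AP-1-like pattern (TGANTCA, 6.57%), the cyclic AMP response element (TGACGTCA, 1.65%) and the gamma-activated element (TTCNNNGAA, 6.57%) were also searched, with N as any base. The last were the GATA motif (AGATAA, 9.17%) and the ETS core (GGAAG, 65.1%). No capitals of the printed windows belong to more than 1 motif. TFPI2 had GC boxes starting at positions -114 and -65, counted back from the start site. It also had TGAATCA starting at -87, which matches the AP-1-like pattern because N stands for any base. DPP4 had GC boxes at -61 and -44, and GZMA had an ETS core at -248. Outside the printed windows, MMP14 held a GC box at -66, a CCAAT box at -118 and an ETS core at -137, and ERAP2 held a GATA motif at -29 and ETS cores at -81 and -56 of its first start and at -61 of its second. These matches describe letters in a window and do not show that a factor binds there.

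GZMA was much higher after OGT depletion, from a very low level. The gene (ENSG00000145649, chromosome 5, 54398476 to 54406080, plus strand, hg19) had 21 and 29 reads in WT and 139 and 102 reads in the OGT-depleted libraries. Both OGT-depleted libraries were above both WT libraries. After scaling, WT held 22.1 and 29.9 normalized counts and the depleted libraries 132 and 97.8, with means of 26.0 ± 5.48 and 115 ± 24.0 (SD, n = 2). The log2 fold change was 2.14 ± 0.25 (SE, n = 2 per group), and the ratio of the means 4.41, rank 2 by size among the 248 listed higher genes. Of the 4 ratios of a depleted over a WT library, the lowest was 1.71 and the highest 2.57 on the log2 scale. Replicates of GZMA differed more than those of the other 4 genes in both groups, by 0.43 on the log2 scale in WT and by -0.43 in the OGT-depleted libraries (replicate 2 over replicate 1). Counting error alone is wide at this depth, with exact Poisson 95% intervals of 13 to 32.1 reads and 19.4 to 41.6 reads in WT, and these overlap. The intervals of the OGT-depleted libraries, 117 to 164 and 83.2 to 124 reads, lie wholly above them. These intervals are on reads before scaling and cover counting error only. GZMA was chosen on these libraries, so nothing is read from the separation.

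TFPI2 was also higher, with close agreement between replicates. The gene (ENSG00000105825, chromosome 7, 93514709 to 93520303, minus strand, hg19) had 53 and 56 reads in WT and 224 and 197 reads after depletion. The 2 WT libraries held 55.8 and 57.7 normalized counts and the depleted ones 212 and 189, so the groups were far apart and did not overlap. Group means were 56.7 ± 1.32 and 201 ± 16.5 normalized counts (SD, n = 2). The log2 fold change was 1.82 ± 0.19 (SE), a 3.53-fold higher level and rank 9 among the listed higher genes. On the log2 scale the library ratios ran from 1.71 to 1.93. The log2 fold changes of GZMA and TFPI2 differed by less than the sum of their SEs. Their order also depended on the estimate, since the authors' deposited table gives TFPI2 the larger log2 fold change (1.18 against 1.06 for GZMA), in a column whose values are smaller in size than the log2 ratios of the deposited group means for both genes.

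DPP4 showed the deepest decrease of the 5. The gene (ENSG00000197635, chromosome 2, 162848751 to 162931052, minus strand, hg19) had 187 and 196 reads in WT and 109 and 82 reads after depletion. That is 197 and 202 normalized counts for WT against 103 and 78.6. The WT libraries nearly coincided, while the depleted libraries stood apart from each other by -0.39 on the log2 scale, and both were below WT. Group means were 199 ± 3.51 and 90.9 ± 17.4 normalized counts (SD, n = 2). The depleted mean was 45.6% of the WT mean. The log2 fold change was -1.13 ± 0.19 (SE), which is rank 6 among the 178 listed lower genes. Library ratios ran from -1.36 to -0.93. Without OGT-depleted replicate 1 the log2 fold change was -1.34 and without OGT-depleted replicate 2 it was -0.95.

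ERAP2 was lower by a smaller amount. The gene (ENSG00000164308, chromosome 5, 96211643 to 96255420, plus strand, hg19) had 244 and 229 reads in WT and 147 and 134 after depletion. The WT libraries had 257 and 236 normalized counts against 139 and 128 after depletion, and the groups did not overlap. The means were 246 ± 14.9 and 134 ± 7.65 normalized counts (SD, n = 2), so 54.3% of the WT level remained. The log2 fold change was -0.88 ± 0.17 (SE), with library ratios that reached -0.76 at the smallest. The replicate differences were -0.12 in both groups on the log2 scale.

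MMP14 was the most abundant of the 5 and had the smallest change. The gene (ENSG00000157227, chromosome 14, 23305766 to 23318236, plus strand, hg19) had 2174 and 2360 reads in WT and 1761 and 1617 after depletion. This gave 2289 and 2431 normalized counts for WT against 1668 and 1550, again without overlap. Group means were 2360 ± 100.02 and 1609 ± 83.7 normalized counts (SD, n = 2), so the depleted level was 68.2% of WT. The log2 fold change was -0.55 ± 0.11 (SE), with library ratios from -0.65 to -0.46, and its rank was 124 among the 178 listed lower genes. The median log2 fold change was 0.90 for the listed higher genes and -0.63 for the listed lower genes, so GZMA, TFPI2, DPP4 and ERAP2 lay beyond the median of their direction and MMP14 did not reach it. That is a position within a table of called genes only, where low genes must change more to be called.

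Per length, the order of the genes differed between the groups. FPKM (reads scaled to gene length and to all counted reads) in WT replicates 1 and 2 was 31.9 and 35.8 for MMP14. It was 2.62 and 2.85 for DPP4 and 2.34 and 2.28 for ERAP2 in the same libraries. GZMA was at 1.29 and 1.84 FPKM and TFPI2 at 1.19 and 1.30, so these last 2 genes overlapped in WT. After depletion MMP14 was still first, at 23.7 and 23.0 FPKM. GZMA followed at 7.82 and 6.05 FPKM and TFPI2 at 4.61 and 4.28. DPP4, at 1.40 and 1.11 FPKM, and ERAP2, at 1.30 and 1.25, were then lowest and overlapped. In WT the FPKM of GZMA was 0.490 and 0.646 of that of DPP4, and in the OGT-depleted libraries it was 5.57 and 5.43 times as high. The FPKM of MMP14 was 26.9 and 27.6 times that of TFPI2 in WT and 5.15 and 5.38 times after depletion. All but MMP14 were below the median WT level of the listed genes, 11.7 FPKM.

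**Figure D1:**
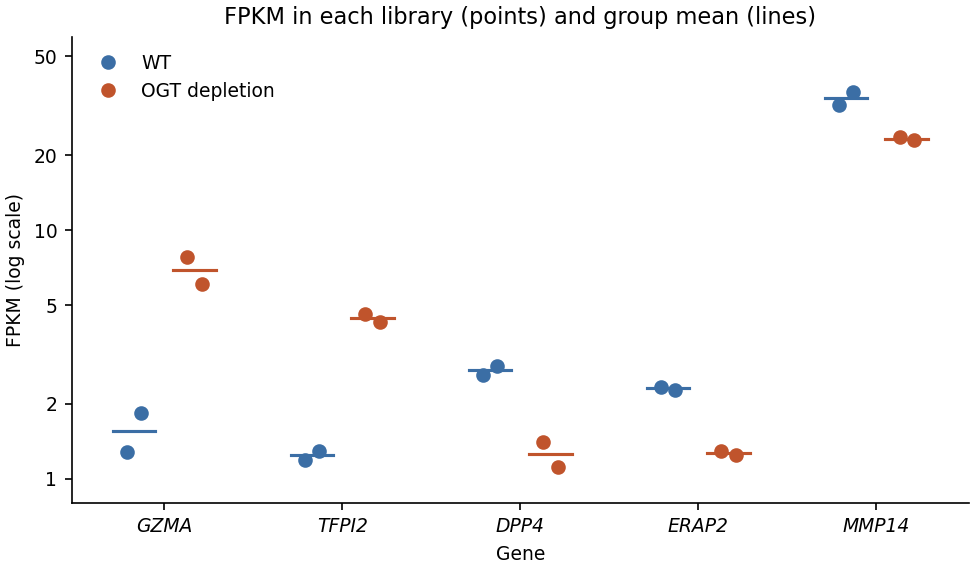
FPKM of each gene on a log axis in the 2 WT libraries (blue) and the 2 OGT-depleted libraries (red), with a line at each group mean. GZMA and TFPI2 were above WT in both depleted libraries, DPP4, ERAP2 and MMP14 were below it, and MMP14 had the highest FPKM in all 4 libraries.

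**Figure D2:**
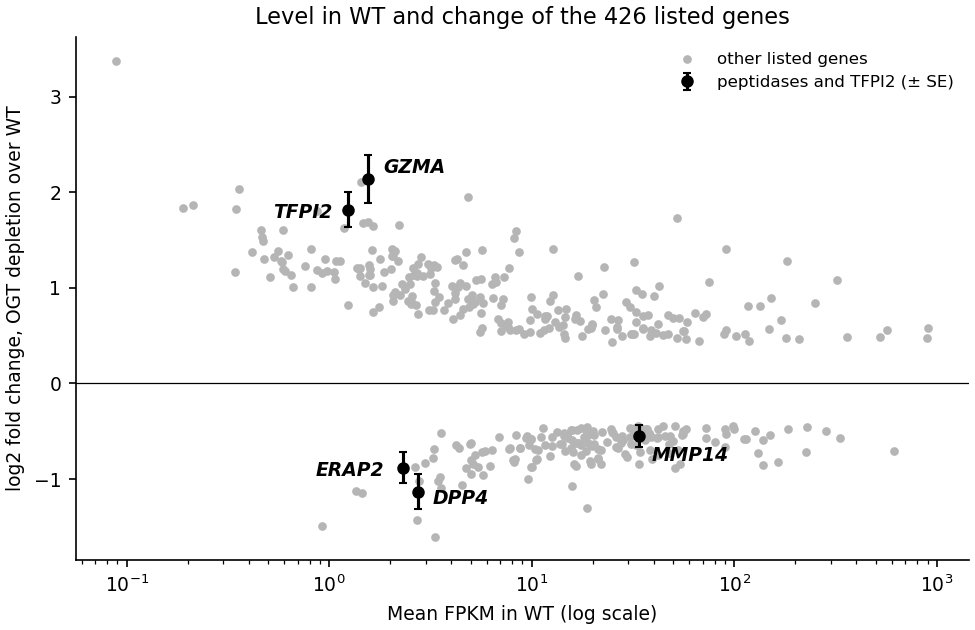
Log2 fold change of OGT depletion over WT against the mean FPKM in WT (log axis) for the 426 listed genes in grey, with the 5 genes in black with their SE. The empty band around 0 reflects that the table holds called genes only, and GZMA (2.14) and TFPI2 (1.82) lie near the upper edge at low FPKM.

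The gene families around these 5 were searched in the table through 13 lists of proteases, inhibitors and partners, 234 genes in all. Of these, 16 were in the table, 10 higher and 6 lower, and of all 426 listed genes 248 were higher and 178 lower. Of all tested genes 3.24% were called, but how many of the 234 were tested is not known. The median log2 fold change of the 16, which include the 5 genes, was 1.18 against 0.56 for all 426. Called genes leave a gap around 0, so such a median shifts with few genes and nothing is read from it. The 11 besides the 5 genes comprised 8 higher and 3 lower genes. For the other genes of the lists the level is not analysed here, so how a whole family behaved cannot be told.

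GZMA was the only one of 12 granzyme and cytotoxic granule genes in the table, and 0 of 6 genes for its substrates in the SET complex were listed. Of 11 mast cell and neutrophil granule proteases 4 were listed as higher, 3 tryptases and a metallo-carboxypeptidase. TPSG1, a transmembrane tryptase, was at 26.3 and 33.0 normalized counts in WT and 143 and 113 after depletion (log2 fold change 2.11 ± 0.23, SE). TPSAB1, the main mast cell tryptase, was at 117 and 130 in WT and 525 and 428 after depletion (1.95 ± 0.17). TPSB2, a near-identical copy of TPSAB1 whose share of the reads is uncertain, was at 39.0 and 27.8 in WT and at 132 and 82.4 after depletion. The mast cell carboxypeptidase CPA3 was at 48.4 and 57.7 in WT and 124 and 119 after depletion.

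Marker genes of other cells were set beside the GZMA difference. None of 12 T and NK lymphoid markers was in the table, so their levels are not analysed here. Of 9 mast cell and basophil markers 5 were listed, 4 higher and 1 lower, the lower one being FCER1A, a chain of the high-affinity IgE receptor. Their summed normalized count was 7619 and 6344 in WT and 8628 and 7573 after depletion, so that the groups overlapped. FCER1A supplied most of the sum in WT, with 5492 and 4418 against 3203 and 2825 after depletion. Without it, the other 4 (HPGD, CPA3, TPSAB1 and TPSB2) came to 2127 and 1926 in WT and 5425 and 4748 after depletion. That sum was added after the values were seen. All 4 were listed as higher, and none of the 426 listed genes overlapped between the groups. Their sum could therefore not overlap, and nothing is read from it. HPGD supplied most of that sum, with 1923 and 1711 in WT and 4645 and 4119 after depletion. None of the 5 markers was at 0. Of 14 megakaryocyte and platelet markers TUBB1 alone was listed, as higher, from 126 and 136 in WT to 264 and 336 after depletion. The lineage of the line could therefore not be checked against its markers. Listed from the others were 1 of 7 monocyte and granulocyte markers (ITGAM, lower), 0 of 5 B lymphoid markers and 1 of 8 fibroblast and endothelial markers (KDR, higher). The part of other cells in the GZMA difference was not tested, and in such bulk libraries more cells of a type and more RNA per cell cannot be told apart.

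Of 31 Kunitz, serpin and cystatin genes 3 were listed as higher, TFPI2 itself, SERPINI1 and SERPINH1, and the other 28 are not analysed here. SERPINI1, which encodes neuroserpin, an inhibitor of tissue plasminogen activator, was at 55.8 and 70.0 normalized counts in WT and 169 and 143 after depletion (log2 fold change 1.30 ± 0.20, SE). SERPINH1 encodes HSP47, a collagen chaperone of the serpin fold that does not inhibit proteases, and it was at 2023 and 2030 in WT and 3070 and 2725 after depletion. TFPI itself, the closest relative of TFPI2, was not listed. In the coagulation and plasminogen list of 23 genes, PROCR, the endothelial protein C receptor, was higher, from 49.5 and 56.6 to 131 and 147 normalized counts. The thrombin receptor gene F2R was lower in the same list, from 2500 and 2410 to 1744 and 1690.

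MMP14 was the only one of 23 matrix metalloproteinases in the table. Of 25 ADAM and ADAMTS proteases, ADAMTS3, a procollagen amino-propeptidase, was listed, at 874 and 816 normalized counts in WT and 494 and 555 after depletion. TIMP3, a matrix-bound inhibitor of metalloproteinases, was the only one of 9 inhibitors and partners of MMP14 in the table. It was at 2732 and 2532 in WT and 1954 and 1850 after depletion, a level of 72.3% of WT with a log2 fold change of -0.47 ± 0.11 (SE). Thus MMP14 and this inhibitor gene were both lower, by amounts whose SEs overlap.

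The families of DPP4 and ERAP2 had no other member in the table. DPP4 was the only one of 16 genes of the prolyl peptidase family and DPP4 partners, and ERAP2 the only one of 30 M1 aminopeptidase and class I antigen processing genes. Among 16 cathepsin and legumain genes, the asparaginyl endopeptidase LGMN was higher, from 70.5 and 76.2 normalized counts to 175 and 155. No gene of 20 caspases and calpains or of 18 membrane metallopeptidases was listed.

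**Figure D3:**
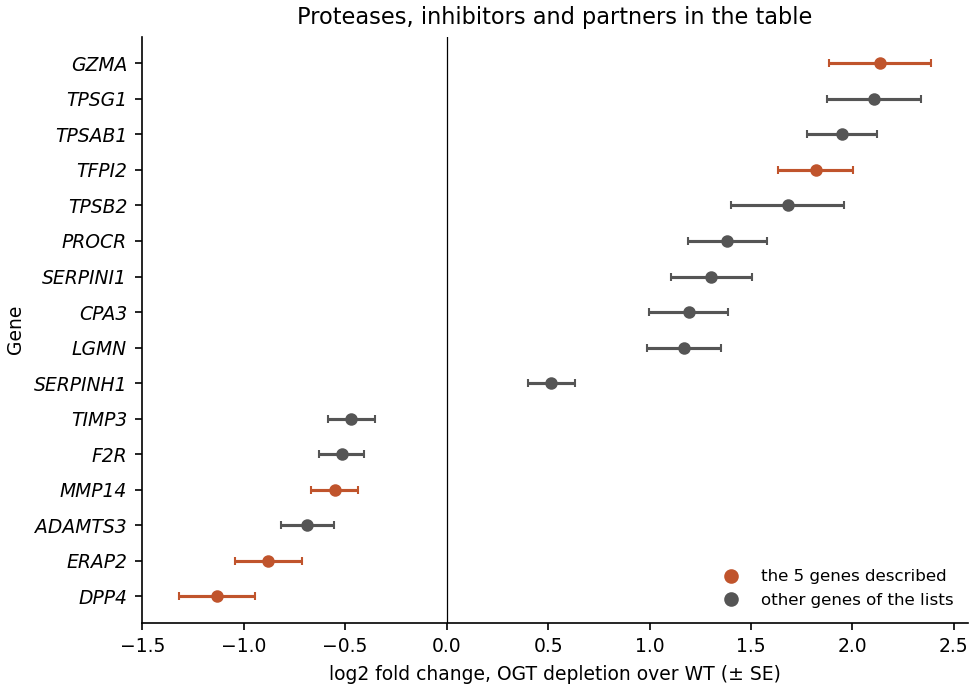
Log2 fold change of OGT depletion over WT with its SE for the 16 listed genes of the protease, inhibitor and partner lists, the 5 genes in red. From GZMA at the top to SERPINH1, 10 genes were higher, and from TIMP3 down to DPP4, 6 were lower.

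A search of the deposited gene descriptions for the words peptidase or protease, made after the values were seen, found 16 genes, 6 higher and 10 lower. Of all 426 listed genes 248 were higher and 178 lower, and nothing is read from this split. The words can match inhibitors too, and they found neither GZMA nor TFPI2. The 16 genes include 3 of the 5 genes (DPP4, ERAP2 and MMP14) and 8 that are in none of the lists, 3 of them higher and 5 lower. TMPRSS15, enteropeptidase of the gut, was at 14.7 and 16.5 normalized counts in WT and 49.3 and 65.2 after depletion. AMZ2, a zinc metallopeptidase, was at 170 and 115 in WT and 345 and 284 after depletion. USP9Y, a deubiquitinase gene, was the remaining higher one. The lower ones were KEL, the blood group endopeptidase (1547 and 1666 against 1024 and 1164), the carboxypeptidase-like CPXM1, the mitochondrial peptidase PITRM1, the serine protease PRSS23 and LONRF2. The lower genes of this search had log2 fold changes no deeper than -0.75 apart from DPP4 and ERAP2.

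The listed genes whose values over the 4 libraries were most like those of each gene were found by the distance between centred log2 normalized counts, where 0 is an identical pattern. For GZMA they were TPSG1 (distance 0.106), TPSAB1 (0.297) and TFPI2 (0.462). TFPI2 was nearest to CADPS2 (0.158), TPSAB1 (0.170) and GPR128 (0.212). DPP4 was nearest to CORO6 (0.194), FZD6 (0.203) and IZUMO1 (0.240). ERAP2 was nearest to CCDC150 (0.105), FAM19A2 (0.106) and EPHB1 (0.141), and MMP14 to ZWINT (0.0572) and PRSS23 (0.0657). These distances rest on 4 libraries in 2 groups and mostly reflect changes of like size.

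The 5 genes were not part of local clusters in the table. Within 1 Mb of them the table held 1 gene, IFIH1, an interferon-induced sensor of double-stranded RNA that lies 0.193 Mb from DPP4. IFIH1 went the opposite way, from 217 and 222 normalized counts in WT to 388 and 361 after depletion (log2 fold change 0.77 ± 0.15, SE). The nearest listed gene was 11 Mb away for GZMA (SREK1), 3.28 Mb for ERAP2 (NR2F1), 11.1 Mb for MMP14 (EGLN3) and 5.47 Mb for TFPI2 (PDAP1). GZMA and ERAP2 lie on the same chromosome and moved in opposite directions.

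Whether reads of overlapping genes could enter these counts was checked by name in GENCODE 29, an annotation on GRCh38, since no source used here gives the strand setting of the counting. No annotated gene overlaps GZMA or MMP14. TFPI2 is overlapped on the opposite strand by GNGT1, with 44 shared exonic bases (1.64% of the exonic bases of TFPI2), and by an antisense RNA gene, AC002076.1, with 79 (2.95%). DPP4 shares 172 exonic bases (3.43%) with the antisense gene AC008063.1. An antisense gene within ERAP2 shares 0 exonic bases with it. None of these overlapping genes was listed in the table.

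Gene length is a property along which the replicates themselves differed. Across the 426 listed genes, which are not independent replicates, the log2 ratio of replicate 2 over replicate 1 rose with length (Spearman rho 0.40 in WT and 0.55 in OGT-depleted libraries). GZMA, the shortest of the 5 at 894 b, had a ratio of 0.43 in WT and -0.43 after depletion, whereas ERAP2, the longest at 5705 b, had -0.12 in both. TFPI2 is 2444 b, MMP14 3732 b and DPP4 3904 b long, against a median of 3538 b in the table. The groups did not overlap in any of the 5 genes, nor in any of the 426, which were chosen on these libraries.

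Scaling set the size of the changes but not their direction. With TMM factors taken from the listed genes, the median log2 fold change of the table moved by -0.21, and with size factors that DESeq2 takes from those genes by -0.49. With the latter factors GZMA was at 1.64 and TFPI2 at 1.33, while DPP4 was at -1.62, ERAP2 at -1.37 and MMP14 at -1.04 (log2 fold change). MMP14 and ERAP2 thus moved most in proportion, and under that scaling the decrease of DPP4 was about as large as the increase of GZMA. Both scalings assume that most listed genes are unchanged, although they were listed as changed. Scaling by the total of counted reads gave 2.15, 1.84, -1.12, -0.86 and -0.54 for GZMA, TFPI2, DPP4, ERAP2 and MMP14.

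**Figure D4:**
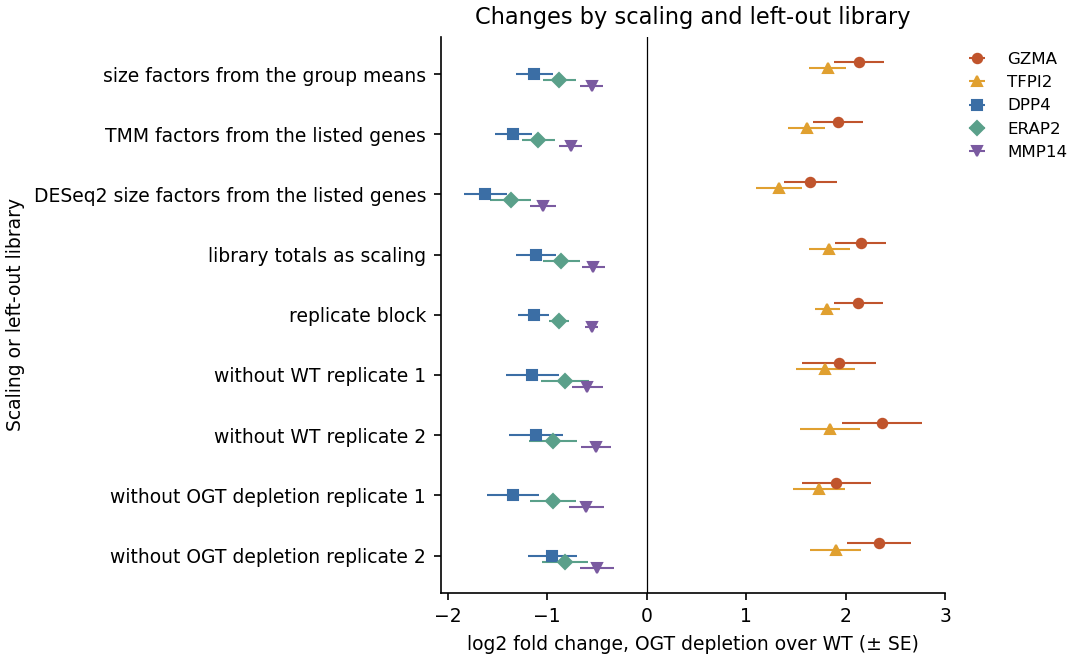
Log2 fold change of OGT depletion over WT with its SE for the 5 genes under each scaling, with the replicate number as a block, and with each library left out. GZMA and TFPI2 stay above 0 and DPP4, ERAP2 and MMP14 below 0 in every setting shown. The groups did not overlap in any of these genes, so leaving out a library could not change a sign.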

How the data were processed

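The authors deposited a table of 426 called genes for 4 libraries, with raw read counts per gene and library and FPKM values per the file headers. Its group means, a deposited signal column per group, average the counts after division by a size factor. The log2 fold changes and p-values printed as deposited were computed by the authors. The submitters' processing notes name CASAVA 1.8, STAR 2.5, TopHat, DESeq2 and hg19 but give no roles. Not given in the sources used here are the counter, the annotation and the strand setting. Count columns headed OGTi were matched to the CR_OGT titles by number, because the deposited CR_OGT mean is made from them. The meaning of OGTi is stated in no source used here, and if it were an inhibitor, the contrast would be of that treatment.

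Library totals were recovered from count, length and FPKM, and size factors from the group means. Log2 fold changes and SEs came from edgeR 4.0.16 (glmQLFit, prior count 0.125) in R 4.3.3 over all 426 genes with those factors and no filter. The SE was taken as the absolute log2 fold change divided by the root of its F statistic. On simulated counts with 200 changed genes of 426, 93.7% of values lay within 2 SE of the truth. That simulation gave every gene the same dispersion, with independent libraries and no selection of called genes. It therefore checks the fit and does not check the SEs of genes chosen on these libraries. DESeq2 1.42.0 was an alternative. Without shrinkage it gave nearly the same log2 fold changes but larger SEs. They were 0.38 for GZMA, 0.28 for TFPI2, 0.26 for DPP4, 0.23 for ERAP2 and 0.14 for MMP14. The edgeR SEs were 0.25, 0.19, 0.19, 0.17 and 0.11 in the same order. With the replicate number as a block, edgeR gave smaller SEs, from 0.07 for MMP14 to 0.246 for GZMA. The SEs thus depended on the fit, and those printed may be too small. Replicates differed by more than counting noise (chi-square per gene 13.3 in WT and 22.1 after depletion), so each was kept. The members, lists and alternatives were chosen with earlier results of these data known. Besides the members, genes named were those of the lists that are in the table, the 3 nearest in pattern and those within 1 Mb or nearest on the chromosome. A gene under that rule is not reported here. OGT and the genes found by description were named outside that rule. Promoters are RefSeq, GRCh38.p14.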

Additional observations from a re-analysis of the deposited data

How the results depend on the processing

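Of 64 values under alternatives for the 5 log2 fold changes, 50 moved by less than the spread between replicates, 14 moved by more, and 0 changed sign. The genes were chosen on these libraries and their groups did not overlap, so leaving out a library could not change a sign. With DESeq2 size factors computed on the listed genes, GZMA was 1.64, TFPI2 1.33, DPP4 -1.62, ERAP2 -1.37 and MMP14 -1.04. With TMM factors from the listed genes TFPI2 was 1.61, DPP4 -1.34, ERAP2 -1.09 and MMP14 -0.76. On log2 FPKM with a pseudocount of 1, which shrinks low genes by construction, GZMA was 1.63, TFPI2 1.28, DPP4 -0.73 and ERAP2 -0.54. Leaving out each library in turn gave 1.90 to 2.37 for GZMA, 1.73 to 1.90 for TFPI2, -1.34 to -0.95 for DPP4, -0.94 to -0.82 for ERAP2 and -0.61 to -0.50 for MMP14. With the replicate number as a block the values were 2.13, 1.82, -1.13, -0.88 and -0.55 in the same order. Deviations of same-numbered libraries correlated at 0.50 across the listed genes, but with 2 pairs the libraries share only a number. A minimum of 50 reads in every library left 399 genes and removed GZMA, which therefore has no value there. With 2 libraries per group the precision is limited, above all for GZMA.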
